A study of Mus musculus with 44 samples.

Results

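The unfolded protein response genes described here are Atf4, Xbp1, Herpud1, Hspa5 and Pdia3. A peak was counted as theirs when it carried the gene's Ensembl identifier or when its span lay within the gene's span in the mouse build mm10. This gave 5 of the 1419 loci with a peak in any list and 94 of 17573 peaks. The peaks mark N6-methyladenosine (m6A), an internal modification of messenger RNA, measured by immunoprecipitation of RNA and sequencing (MeRIP) in whole liver. Every mouse was a male of the inbred strain C57Bl/6J and ate high-fat chow, in which fat supplied 42% of calories. Vehicle went to the controls, and Aroclor1260, PCB126 or Aroclor1260+PCB126 (the combination) to the other groups, by mouth and once, at week 2 of 12. Aroclor1260 is a technical blend of polychlorinated biphenyls (PCBs) rich in chlorine, and PCB126 is 1 such compound, a potent ligand of the aryl hydrocarbon receptor. No source used here states the doses or ages. Each of the 4 treatments had 5 m6A libraries and 5 input libraries, and 1 library precipitated with control IgG from pooled material. The authors deposited 1 peak list per treatment and reference, so there were 8 lists and no value for a single animal. No difference below can be set against the spread between mice, and no test across animals was possible. The fold enrichment of a peak, m6A precipitate over reference, is the authors' own value and ranks peaks within its list. Values of different lists are set side by side, and no change in level is read from them. Sequencing depth behind each list is unknown.

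When unfolded protein accumulates in the endoplasmic reticulum (ER), membrane sensors of the unfolded protein response slow translation and switch on genes for folding and disposal. Hspa5 encodes BiP, the ER chaperone of the HSP70 family that also holds the sensors inactive. Pdia3 encodes ERp57, a disulfide isomerase that works with calnexin and calreticulin on glycoproteins. Herpud1 encodes an ER membrane protein of ER-associated degradation, which exports misfolded protein to the proteasome. Xbp1 and Atf4 encode transcription factors that carry the signal to the nucleus, Xbp1 after its messenger RNA is spliced by the sensor IRE1 and Atf4 after its translation is released by phosphorylation of eIF2 alpha. Hepatocytes secrete most plasma proteins and depend on this system. In messenger RNA, m6A is commonest around stop codons and in the 3' untranslated region.

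The genes were matched to RefSeq promoter windows of GRCm38.p6, the patched form of mm10, and all 5 had a window of 250 bases before to 50 after the annotated start. Stretches of 3 windows are shown because they hold matches to the elements through which ER stress is known to switch genes on. The ER stress response element (ERSE) was searched as CCAAT and CCACG with 9 bases between them. It was also searched with its last base free, a pattern that includes the first. ERSE-II was searched as ATTGG and CCACG with 1 base between them, and the core of the unfolded protein response element as TGACGTG, all on both strands. Capitals mark the matches, and the stretches lie on the plus strand at chr2:34771913-34772063, chr8:94386357-94386449 and chr2:121413853-121413911.
Hspa5: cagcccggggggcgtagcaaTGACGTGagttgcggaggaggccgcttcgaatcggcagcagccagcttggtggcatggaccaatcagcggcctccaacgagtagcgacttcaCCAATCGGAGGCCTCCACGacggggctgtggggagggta
Herpud1: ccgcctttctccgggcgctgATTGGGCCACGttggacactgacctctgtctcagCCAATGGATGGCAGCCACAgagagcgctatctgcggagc
Pdia3: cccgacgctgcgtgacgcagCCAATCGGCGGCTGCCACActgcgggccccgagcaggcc

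With the first base of the gene counted as 0, the full ERSE of Hspa5 began at -65 and its TGACGTG at -157. Herpud1 held ERSE-II at -52 and the relaxed ERSE at -18, and Pdia3 the relaxed ERSE at -29. Of 32851 RefSeq promoter windows of this length, 0.119% held the full ERSE, 0.365% the relaxed one, 0.0365% ERSE-II and 2.01% TGACGTG. No match was found in the windows of Atf4 and Xbp1, which says only that these letters are not in them. None of the 94 peaks reached into a window, the nearest starting 72 bases after the first base of Pdia3. The bases under the peaks could not be printed because no genome sequence was used here.

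Against input, Hspa5 and Pdia3 had peaks in all 4 treatments, whereas Atf4, Xbp1 and Herpud1 had peaks after PCB126 and after the combination only. The number of the 5 genes with a peak was thus 2 in the control, 2 with Aroclor1260, 5 with PCB126 and 5 with the combination. Of all 1419 loci, 18.0%, 16.1%, 48.5% and 50.6% had a peak in these lists, in the same order. Against IgG, the numbers were 5 in the control, 4 with Aroclor1260, 5 with PCB126 and 5 with the combination, with 42.1%, 42.4%, 77.4% and 70.0% of all loci. The gene without a peak after Aroclor1260 against IgG was Atf4. Hspa5 and Pdia3 were among the 141 loci, 9.94% of all, with a peak in every one of the 8 lists.

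The 5 genes carried 5 peaks in the control list against input, 3 with Aroclor1260, 13 with PCB126 and 14 with the combination. Against IgG they carried 16, 14, 12 and 17. Counting peaks with the genes' own identifiers, they made up 0.806%, 0.593%, 0.551% and 0.613% of the peaks in the input-referenced lists and 0.765%, 0.672%, 0.291% and 0.462% of those in the IgG-referenced lists. The higher numbers after PCB126 and the combination against input were thus found in longer lists, and the share of the list was highest in the control with either reference. All 5 genes lie on the plus strand, as did 95.2% of all peaks. Of 8730 protein-coding plus-strand genes with a promoter window, 11.4% had a peak in any list, against 0.285% of 8762 minus-strand genes. No source used here says whether reads were assigned by strand.

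**Figure D1:**
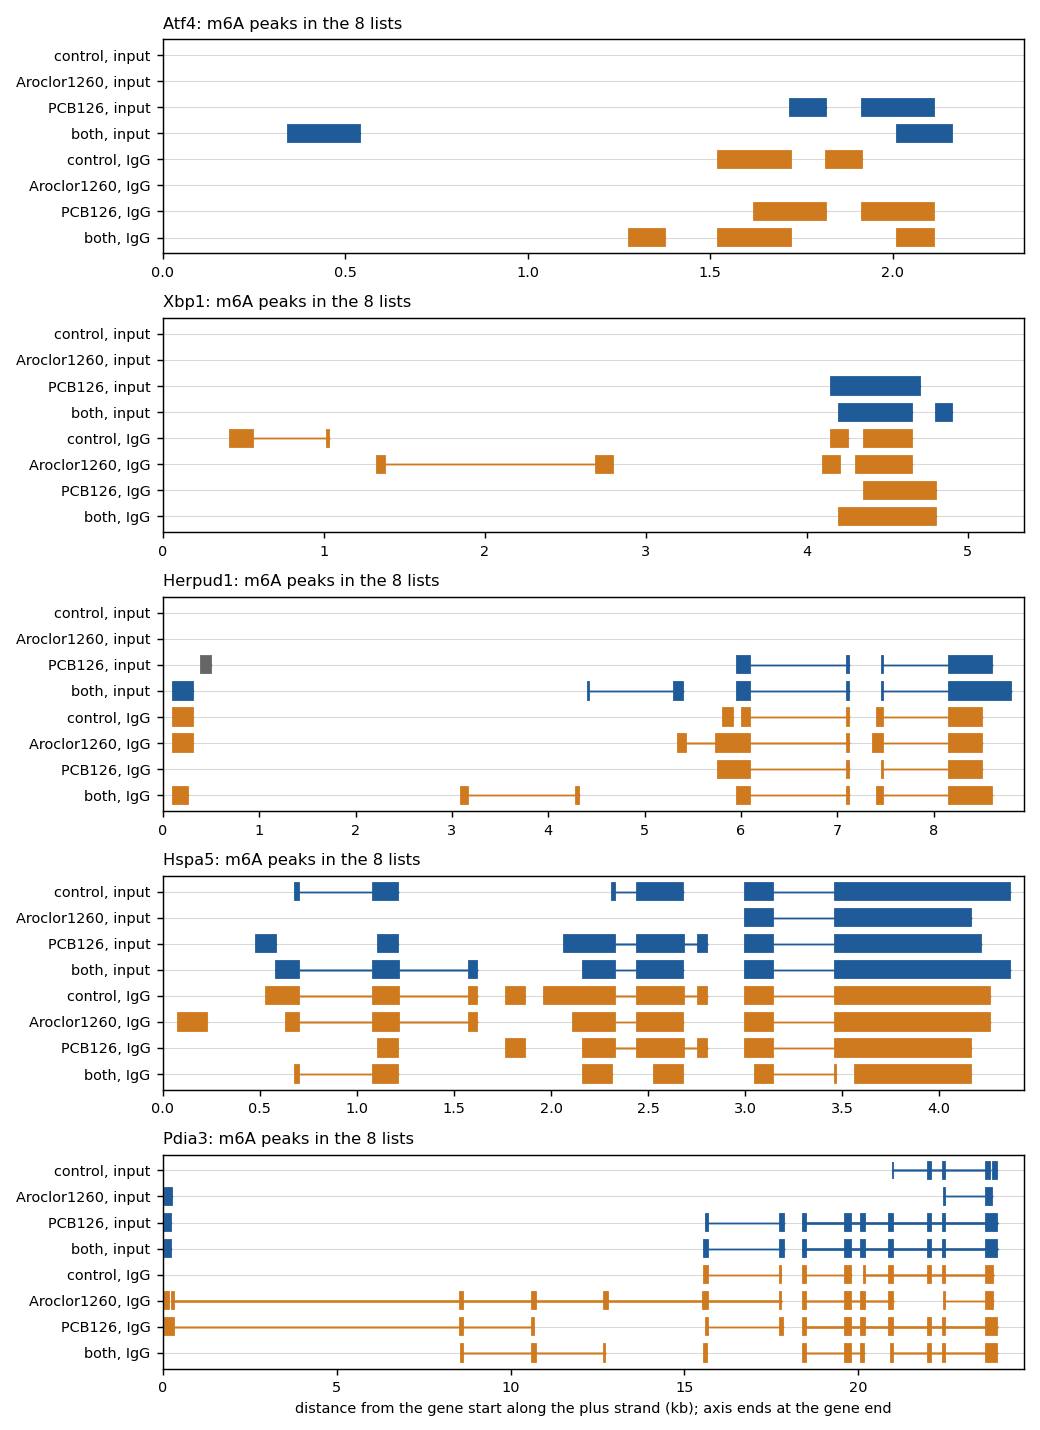
Peaks of the 5 genes, drawn to scale by distance from the gene start in kilobases, with 1 row for each treatment and reference ("both" is the combination). Boxes are exonic blocks and thin lines join the blocks of a peak, in blue against input, in orange against IgG and in grey for the peak with another identifier within Herpud1. The block near the 3' end of Hspa5 is present in all 8 rows, and the first 2 rows of Atf4, Xbp1 and Herpud1 are empty.

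Hspa5 (ENSMUSG00000026864, chromosome 2 from 34772090 to 34776529) had the most peaks of the group, 28 over the 8 lists, and the highest fold in each list. It also had the most bases under peaks in each list but the combination against IgG, where Pdia3 had as many (1150). Its strongest peak lay near the 3' end in each list. Against input, that peak began at 34775091 in all 4 treatments, joined a block of 143 bases to a longer block, and ended at 34776453 in the control, 34776254 with Aroclor1260, 34776303 with PCB126 and 34776453 with the combination. Its fold enrichment was 4.93 in the control, 3.31 with Aroclor1260, 11 with PCB126 and 7.35 with the combination. With these values Hspa5 stood above 65.1% of the loci of the control list, 53.7% with Aroclor1260, 85.9% with PCB126 and 80.2% with the combination. Against IgG, the strongest peak had 6.67, 7.31, 12.8 and 8.76 in the same order. These values stood above 71.2%, 79.5%, 84.7% and 75.7% of loci. The lowest of the 4 values was that of Aroclor1260 against input and that of the control against IgG. In the combination against IgG, the 3' peak was split. The 8.76 there belongs to a single block of 598 bases, beside a peak from 34775141 to 34775557 with 2.88. The values therefore belong to peaks of unlike length, and no order of the treatments is read from them.

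The bases of Hspa5 common to all 8 lists were 3 stretches of 93, 7 and 598 bases. The longest ran from 34775657 to 34776254 and ended 275 bases before the annotated gene end. Upstream, the gene had a peak between 34774056 and 34774892 in every list except Aroclor1260 against input, with folds from 1.49 in the control against input to 4.87 after Aroclor1260 against IgG. In the combination against IgG that stretch was split into a pair of peaks. Bases 34773200 to 34773300 were also under a peak in every list except Aroclor1260 against input. The peak over them in the combination against IgG, from 34772771, had 5.90, the highest value of the gene outside the 3' end. A peak 79 bases after the first base of the gene, from 34772169 to 34772318, was found after Aroclor1260 against IgG with 4.20 and in no other list. In bases, peaks covered 1446 of Hspa5 in the control, 847 with Aroclor1260, 1646 with PCB126 and 1744 with the combination against input. Against IgG the values were 2042, 1793, 1497 and 1150, so that the combination covered the most bases with input as reference and the fewest with IgG. The minus-strand gene Rabepk overlaps the 3' part of Hspa5 from 34774609 on, and 16 of the 28 peaks touched it. Rabepk itself had no peak in any list.

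**Figure D2:**
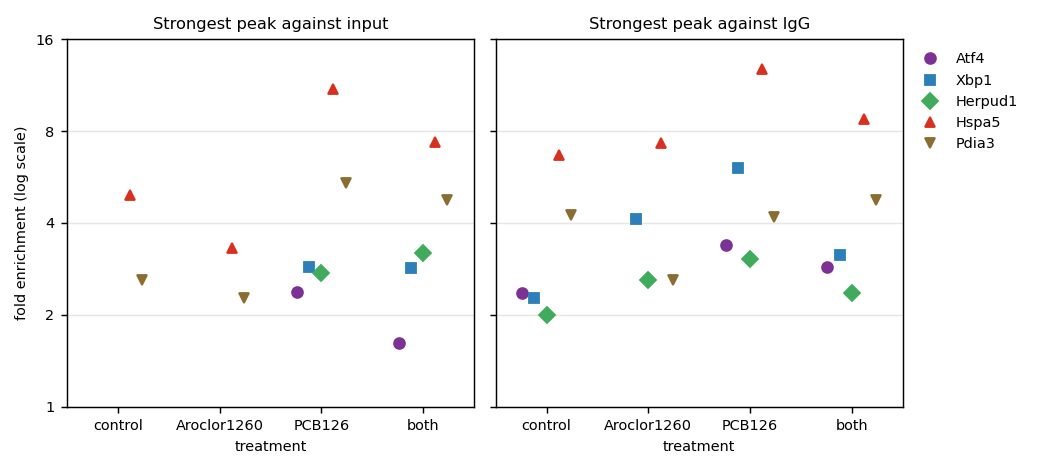
Fold enrichment of the strongest peak of each gene (log axis) by treatment, against input on the left and against IgG on the right, with 1 point per list and no error because each list pooled the animals of a treatment. Hspa5 is the highest point of every column, from 3.31 to 12.8, and no point is drawn where a gene had no peak.

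Pdia3 (ENSMUSG00000027248, chromosome 2 from 121413902 to 121438687) was the other gene present in every list, with 24 peaks. In the control against input it had a peak of 4 blocks from 121434912 to 121437691 with a fold of 2.61 and another from 121437790 to 121437890 with 2.00. After Aroclor1260 the 3' peak ran from 121436370 to 121437741 with 2.24. After PCB126 and after the combination, a single peak of 7 blocks and 947 exonic bases covered 121432318 to 121437890, with 5.42 and 4.77. The same limits were found after PCB126 against IgG, with 4.19. The control against IgG held that region as a pair of peaks with 4.25 and 3.47, Aroclor1260 as a pair with 2.58 and 2.61, and the combination as a pair with 2.80 and 4.76. All 7 blocks were therefore under a peak in full in PCB126 and the combination against input and in PCB126 against IgG. In the control, Aroclor1260 and the combination against IgG, peaks covered the wide region in part. Aroclor1260 against IgG left out the block from 121435921 to 121436000. In exonic bases, peaks covered 351 of Pdia3 in the control, 401 with Aroclor1260, 1298 with PCB126 and 1348 with the combination against input, and 900, 1350, 1447 and 1150 against IgG.

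Further upstream, bases 121429515 to 121429565 were under a peak in 6 lists, all but the control and Aroclor1260 against input, with folds from 1.34 after PCB126 against input to 3.75 after the combination against IgG. Pdia3 also had a peak at its 5' end, starting at 121413974 in 5 lists. Against input, it had a fold of 2.27 with Aroclor1260, 1.40 with PCB126 and 1.56 with the combination, and the control list held none there. Against IgG, it was found after Aroclor1260 with 1.63 and, joined to downstream exons, after PCB126 with 2.2. The control was thus without the 5' peak with either reference, and the combination was without it against IgG. After Aroclor1260 against input, the 5' peak was the strongest of the gene by 2.27 against 2.24. The first bases of Pdia3 overlap the minus-strand gene Catsper2, and 6 of the 24 peaks touched its span. Catsper2 had no peak of its own.

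Herpud1 (ENSMUSG00000031770, chromosome 8 from 94386429 to 94395371) had 19 peaks with its own identifier, in 6 lists. Against input it had none in the control or after Aroclor1260. After PCB126, a peak of 150 exonic bases from 94392392 to 94393547 had a fold of 2.75 and a 3' peak from 94393894 to 94395030 had 2.16. After the combination, the same places had 2.12 and 3.19, the second extended to 94395228, 143 bases before the gene end. The junction peak was thus the higher of the pair after PCB126, and the 3' peak after the combination. Against IgG, the 3' peak was present in all 4 treatments, with 1.99 in the control, 2.60 with Aroclor1260, 3.04 with PCB126 and 2.02 with the combination. The peak across the exon break between 94392524 and 94393531 had 1.61, 2.29, 2.43 and 2.35 in the same order, so that it was the higher of the pair in the combination alone. The stretch from 94394591 to 94394930 was common to all 6 lists that held the gene. A 5' peak starting at 94386537, 108 bases after the first base of the gene, was found in the control (1.42), after Aroclor1260 (1.65) and after the combination (1.30) against IgG, and after the combination against input (1.42). After PCB126 it was absent with both references. A separate peak from 94386828 to 94386924, with a fold of 1.26 after PCB126 against input, lay within the gene but carried the minus-strand identifier ENSMUSG00000090105, which had no other peak.

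Xbp1 (ENSMUSG00000020484, chromosome 11 from 5520641 to 5525993) had 11 peaks in 6 lists. Against input it had 1 peak after PCB126, from 5524794 to 5525344 with a fold of 2.86, and 2 after the combination. The first of these ran from 5524844 to 5525294 with 2.85, and the second from 5525443 to 5525543 with 1.5. Against IgG, the strongest peak had 2.27 in the control, 4.13 with Aroclor1260, 6.07 with PCB126 and 3.15 with the combination. Within their own lists these stood above 17.1%, 50.1%, 51.4% and 19.0% of loci. The stretch from 5524994 to 5525294, 301 bases long and 699 bases before the gene end, was under a peak in all 6 lists that held the gene. Weak peaks of 2 blocks appeared against IgG alone, near the 5' end from 5521059 to 5521670 in the control (1.48) and centred at the middle of the gene from 5521970 to 5523433 after Aroclor1260 (1.40).

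Atf4 (ENSMUSG00000042406, chromosome 15 from 80255184 to 80257545) had 11 peaks in 5 lists and was the weakest of the group against input. After PCB126, its peaks from 80256903 to 80257001 and from 80257099 to 80257295 had folds of 1.35 and 2.38. After the combination, a peak from 80257197 to 80257345 had 1.61 and a 5' peak from 80255528 to 80255724 had 1.19. The strongest of these stood above 16.1% of loci after PCB126 and 3.90% after the combination. Against IgG, the strongest peak had 2.35 in the control, 3.40 after PCB126 and 2.87 after the combination, and no peak was found after Aroclor1260. The stretch from 80257197 to 80257295 was under a peak in 4 of the 5 lists, the exception being the control against IgG, whose peaks lay upstream at 80256706 to 80256903 and 80257001 to 80257099. No Atf4 peak spanned an exon junction, and 2 of 11 did at Xbp1, 14 of 19 at Herpud1, 19 of 28 at Hspa5 and 18 of 24 at Pdia3. These numbers count the same places again in each list that held them. The share over all peaks was not counted, so they have none beside them.

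The exposures were then compared with the control by presence of a peak. The 3 exposures share the same control lists. Against input, Atf4, Xbp1 and Herpud1 gained a peak after PCB126, where 31.8% of all loci did so, and the same 3 genes gained a peak after the combination, where 33.8% did. None of the 5 gained a peak after Aroclor1260, against 4.58% of loci. None lost its peak in any exposure, against 6.41% of loci with Aroclor1260, 1.27% with PCB126 and 1.2% with the combination. These shares are of all 1419 loci, of which 255 had a control peak against input. Those 255 could lose a peak, and 91, 18 and 17 did so in the same order. The shares for gains also count the 255 loci, which could not gain one. Only these 3 genes could gain a peak against input, and only Hspa5 and Pdia3 could lose one. Against IgG all 5 genes had a control peak, so that no gain was possible, alone or together with input. Atf4 lost its peak against IgG after Aroclor1260, and none of the 5 genes did so after PCB126 or the combination. Of all 1419 loci, 12.5%, 4.79% and 5.29% lost theirs. These were 178, 68 and 75 of the 597 loci with a control peak against IgG.

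The 3 gains against input were thus at genes that already had a control peak against IgG. Among the 371 loci with a control peak against IgG and none against input, 56.6% had a peak against input after PCB126 and 66.8% after the combination. In 37.5% of the 371, that was so in both and not after Aroclor1260, as at Atf4, Xbp1 and Herpud1. With presence in all 4 IgG-referenced lists also required, the pattern held at 5.78% of all loci, Xbp1 and Herpud1 among them. Gains against input at such loci were thus common, and the 3 genes were not tested against these shares. When each list was reduced to its 506 peaks of lowest p-value, Herpud1 was the only one of the 5 genes gained after either exposure, and Atf4 and Xbp1 had no peak. At that length, 9.37% of all loci gained a peak with PCB126 and 9.94% with the combination. With a fold of at least 2 required, Atf4 was no longer gained after the combination, and 30.0% and 31.4% of loci gained a peak.

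**Figure D3:**
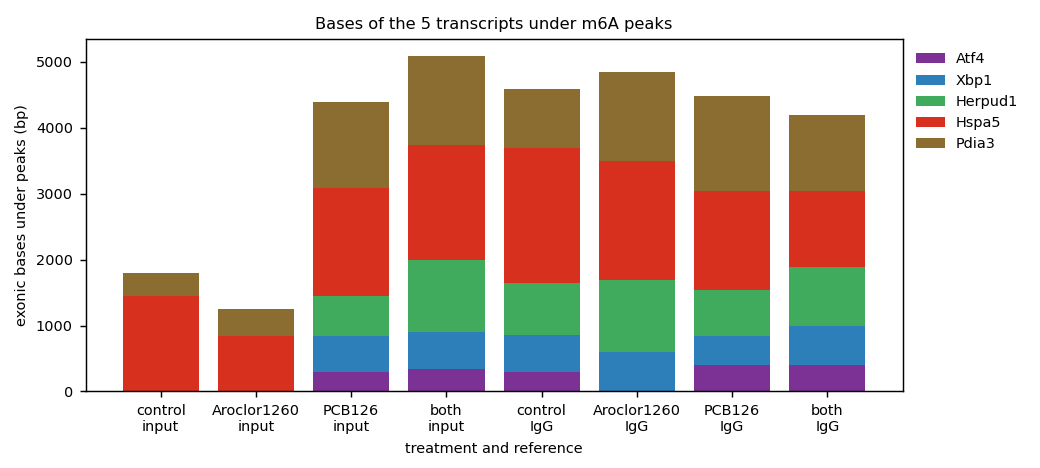
Exonic bases of each gene under peaks with its own identifier, stacked by gene, for the 4 treatments against input (left bars) and against IgG (right bars). Against input the bars rise from 1797 bases in the control and 1248 after Aroclor1260 to 4389 after PCB126 and 5086 after the combination, whereas against IgG they lie between 4193 and 4841.

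In total, peaks covered 1797 bases of the 5 genes in the control, 1248 with Aroclor1260, 4389 with PCB126 and 5086 with the combination against input. Against IgG, the values were 4588, 4841, 4486 and 4193. Over whole lists, peaks covered 207815, 156826, 753569 and 715337 bases against input, and 581864, 545033, 1200827 and 1013090 against IgG. Against IgG, the bases covered at the 5 genes were thus fewest in the combination, whereas those over the whole list were fewest after Aroclor1260. These sums have no replicate error, and they move with the number of peaks called.

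By overlap of at least 1 base, 2 of the 5 control peaks against input were found after Aroclor1260, and all 5 after PCB126 and after the combination. Over the whole control list, these shares were 50%, 88.2% and 87.4%. In the other direction, peaks at these genes without a counterpart in the control list against input were counted. They were 1 of 3 with Aroclor1260, 8 of 12 with PCB126 and 10 of 14 with the combination. Over whole lists 36.4%, 79.3% and 79.6% had none, so the shares at the 5 genes lay below those of the lists. Against IgG, 3 of 14, 1 of 12 and 4 of 17 were absent from the control list. Over whole lists 41.1%, 64.2% and 59.7% were absent. The new PCB126 peak against IgG was the 5' peak of Pdia3. Between references, peaks at these genes against input were also found against IgG in 5 of 5 cases in the control, 3 of 3 with Aroclor1260, 11 of 12 with PCB126 and 11 of 14 with the combination. Over whole lists, 85.0%, 88.3%, 87.9% and 81.9% were found. In the opposite direction, the numbers were 4 of 16, 4 of 14, 11 of 12 and 13 of 17, beside 24.4%, 21.0%, 47.0% and 52.9% over whole lists.

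**Figure D4:**
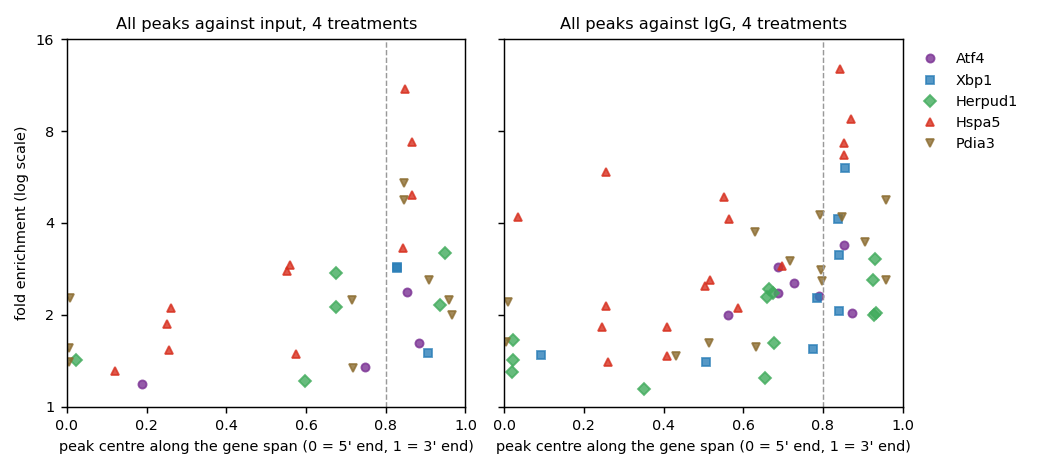
Fold enrichment (log axis) of all 93 peaks with the genes' own identifiers against the place of the peak's centre along the gene span, from the 5' end at 0 to the 3' end at 1, with the 4 treatments together in each panel. The dashed line marks the start of the last 20% of the span, to the right of which every point above 6 lies.

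Of the 93 peaks with the genes' own identifiers, 34 had their centre in the last 20% of the gene span and 11 in the first 10%. Among the other 12410 plus-strand peaks at plus-strand genes, 49.1% lay in the last 20% and 5.89% in the first 10%. Over the 93 peaks together, the share in the last 20% was thus lower, and that in the first 10% higher. The same places recur in several lists, so these are not separate sites. In the last 20% lay 4 of 11 peaks at Atf4, 7 of 11 at Xbp1, 6 of 19 at Herpud1, 8 of 28 at Hspa5 and 9 of 24 at Pdia3. In the first 10% lay 0, 1, 4, 1 and 5 in the same order. The strongest peak of Hspa5 lay in the last 20% in 8 of 8 lists, that of Pdia3 in 6 of 8, that of Xbp1 in 5 of 6, that of Herpud1 in 4 of 6 and that of Atf4 in 3 of 5. The place of the strongest peak was not counted at other loci, so these numbers have no share beside them. The centre of the strongest Hspa5 peak moved little, between 0.843 and 0.871 of the span, whereas that of Pdia3 ranged from 0.007 to 0.959. Gene spans include introns, so these places are not distances along the messenger RNA, and coding and untranslated parts were not assigned.

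The wider pathway was examined through 62 further genes, 4 of which had a peak in any list. The sensors Ern1, Eif2ak3 and Atf6, with Atf6b, Ern2 and the proteases Mbtps1 and Mbtps2 that cut Atf6, had none of 7. The disulfide enzymes had none of 8, the related membrane-bound factors of the Creb3 family none of 4, and the chaperones 1 of 13. The arm of the kinase PERK and Atf4 had 2 of 11, and degradation and translocation 1 of 19. Of these 62 genes, 29 lie on the minus strand, and none of those had a peak. Of 22 on the plus strand, 3 had one, and the strand of the remaining 11, of which 1 had a peak, was not assigned. Over all protein-coding genes with a promoter window, the shares were 0.285% on the minus and 11.4% on the plus strand. The 62 genes leave out the genes described above, all of which lie on the plus strand and had peaks. These counts therefore cannot show whether the pathway as a whole differs from those shares, and this was not tested. Among the 62 genes, those without a peak include Hsp90b1, Calr and Canx on the minus strand, and Ddit3 and Syvn1 on the plus strand.

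The 2 members of the Atf4 arm were found in every list. Cebpb encodes a transcription factor that dimerises with Atf4 and is abundant in liver, and its strongest peak began at 167689012 on chromosome 2 in all 8 lists. Its fold was 13.2 in the control, 2.64 with Aroclor1260, 26.8 with PCB126 and 3.15 with the combination against input. Against IgG, it was 9.31, 25.3, 35.3 and 5.97. The peak ended at 167690176 except with Aroclor1260 and the combination against input (167689545) and the combination against IgG (167689933). Aroclor1260 had the lowest value with input as reference and the second highest with IgG, but these values belong to peaks of unlike length. Ppp1r15b encodes a regulatory subunit of the phosphatase that reverses the phosphorylation of eIF2 alpha. Its strongest peak on chromosome 1 had 5.39, 5.39, 14.6 and 8.31 against input and 6.20, 12.8, 20.7 and 15.4 against IgG. At both loci the lists also held peaks of a minus-strand identifier. Neither gene gained or lost its peak in any exposure.

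The other 2 genes were found in some lists. Dnajb12, an ER membrane co-chaperone of degradation, had a peak near 59897568 on chromosome 10 in the control against input with 4.79 and after PCB126 with 8.84. It was without a peak after Aroclor1260 and after the combination against input, although both had 4 peaks against IgG, up to 8.32 and 7.27. Dnajb11, an ER co-chaperone of BiP, had a single peak with 4.00 after PCB126 against IgG. Against input, 0 of the 62 genes gained a peak in any exposure, and Dnajb12 was the only one to lose it, after Aroclor1260 and after the combination. Of all 1419 loci, 4.58%, 31.8% and 33.8% gained a peak against input with Aroclor1260, PCB126 and the combination. With Aroclor1260 6.41% lost theirs, and with the combination 1.2%. These were 91 and 17 of the 255 loci with a control peak against input. All 1419 loci had a peak in some list, whereas only 4 of the 62 genes did. The 62 genes and the loci are therefore not like sets, and nothing is read from the 0 beside these shares. Cebpb, Ppp1r15b and Dnajb12 had a control peak against input and could only lose it. Dnajb11 had no peak in any list against input.

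Other loci with the same pattern were sought for each gene. Presence and absence of a peak matched that of Hspa5 and Pdia3 at 139 loci, that of Xbp1 and Herpud1 at 80 and that of Atf4 at 49. Among these, likeness was measured as the root mean square difference of the log2 highest fold over the lists with a peak. Closest to Hspa5 was Reep6, with 0.296 on the log2 scale over 8 lists, before an unnamed identifier, ENSMUSG00000037075, with 0.325, and Golga4 with 0.364. Closest to Pdia3 were Glyat with 0.304, ENSMUSG00000026344 with 0.338 and Acsl1 with 0.366, also over 8 lists. Nav2 with 0.242, Nsun2 with 0.263 and Psmd1 with 0.329 were closest to Xbp1 over 6 lists, and Abat with 0.337, Serpina3k with 0.448 and H2-D1 with 0.485 to Herpud1. Atf4 had looser neighbours over 5 lists, namely Csnk1g2 with 0.506, Otc with 0.510 and ENSMUSG00000109727 with 0.589. H2-D1 and Serpina3k belong to families of near-identical genes and are uncertain.

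The labelled tissue was set against cell type markers by the presence of peaks, the only measure the lists give. Of 10 hepatocyte genes, 2 had a peak in the control, 1 with Aroclor1260, 3 with PCB126 and 6 with the combination against input, and 3, 5, 5 and 6 against IgG. Of the 1419 loci with a peak in any list, 18.0%, 16.1%, 48.5% and 50.6% had one against input, in the same order. Against IgG, 42.1%, 42.4%, 77.4% and 70.0% had one. All of those loci had a peak in some list, whereas 6 of the 10 hepatocyte genes did, so the sets are not alike. Of 6 endothelial markers, 1 (Bmp2) had a peak in every list, as did 1 (Hand2) of 6 stellate markers. Of the 1419 loci, 9.94% had one in every list. Of 6 macrophage markers, Cd5l had a peak in 4 lists, and none of 4 cholangiocyte and 4 lymphocyte markers had any. Most genes had no peak in any list, since 11.4% of plus-strand and 0.285% of minus-strand protein-coding genes with a promoter window had one. A marker without a peak is therefore not read as a missing cell type. Peaks do not measure expression, and in whole liver fewer cells of a type and less RNA per cell cannot be told apart. The part of either in the results was not tested.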

How the data were processed

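The libraries were mouse liver m6A immunoprecipitates, inputs and IgG controls. The submitters' processing notes name build mm10, BWA 0.7.17, Trimmomatic, bcl2fastq 2.20.0.422 and FastQC 0.10.1. The peak caller was MeTPeak per the deposited lists' titles (version, settings and annotation: not given in the sources used here). Per the file headers, each deposited peak has a fold enrichment (a linear ratio), a p-value, and the log10 of the false discovery rate.

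Starts were shifted by 1 so that coordinates count from 1. Identifiers were named by the RefSeq gene (GRCm38.p6) that held at least 80% of their exonic peak bases, which named 1398 of 1512. Identifiers of the same name formed 1 locus. Gained meant a peak in the exposed and none in the control list of the same reference, and lost the opposite. Input was the main reference. Alternatives were IgG, a fold of at least 2, a false discovery rate of at most 0.01, the 506 peaks of lowest p-value per list, own identifiers only, and a reciprocal overlap of 50%. Named were the 5 genes with their peaks, every further pathway gene with a peak, and for each of the 5 genes the 3 loci of the same presence pattern with the most similar folds. The genes and lists were chosen with earlier results of these data known. Naming and overlap were tested on simulated peaks. Scripts ran in Python 3.11.15 with pandas 2.3.3.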

Additional observations from a re-analysis of the deposited data

How the results depend on the processing

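No paired analysis was possible because the lists give no value for a single library, and for the same reason no replicate could be left out. With IgG as reference, genes with a peak numbered 5 in the control and 4 after Aroclor1260, with 16 and 14 peaks. Gains after PCB126 and after the combination were then 0 each, as all 5 genes had a control peak, and 1 gene was lost after Aroclor1260. Of 16 control peaks, 12, 13 and 12 were found in the Aroclor1260, PCB126 and combination lists, beside 56.8%, 79.4% and 74.6% of all control peaks. With a fold of at least 2, peaks at the 5 genes numbered 3 in the control, 8 after PCB126 and 7 after the combination, and 3 control peaks were found after PCB126 and 3 after the combination. With 506 peaks per list, PCB126 left 3 genes with a peak and the combination 3, with 1 gain in each. With reciprocal overlap, 1, 1 and 3 of the 5 control peaks were found. No share of all control peaks under this rule stands beside these numbers, so they are not read as a trait of the 5 genes. A stricter false discovery rate and own identifiers only moved none of 8 counts each beyond 1.5 times. Depth is unknown, so the absence of a peak cannot be told apart from low coverage.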
